A study of Mus musculus with 12 samples.

Results

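The transcripts described here encode mitochondrial ribosomal proteins, taken as every gene of the count table whose symbol begins with Mrpl or Mrps followed by a digit, pseudogene names left out. The rule found 76 genes among 25899 different symbols, 47 named for the large subunit and 29 for the small subunit. All 76 passed the filter on low counts. They were measured by bulk RNA-seq in 12 libraries of sorted intraepithelial lymphocytes (IEL), the T cells that sit between epithelial cells of the gut, from small intestine of Rag2-deficient mice. These hosts lack T and B cells of their own. Conventional T cells of Themis wild-type donors, taken from lymph nodes, had been given intravenously 1 week before. CD8αα from CD4 denotes TCRβ CD8αα cells from hosts given CD4 T cells, and CD4 IEL denotes TCRβ CD4 cells from such hosts. CD8αα from CD8αβ denotes TCRβ CD8αα cells from hosts given CD8αβ T cells, and CD8αβ IEL denotes TCRβ CD8αβ cells from such hosts. CD4 IEL and CD8αβ IEL are called the companions of the CD8αα cells from the same donor cells. Each group had 3 libraries. The labels give no age, nor do they state that each replicate is its own animal. The p-values therefore cover the spread among these libraries, which may be technical.

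Mitochondria have ribosomes of their own, which resemble those of bacteria and make only the few membrane proteins of oxidative phosphorylation that mitochondrial DNA encodes. Their RNA comes from mitochondrial DNA, whereas every protein of both subunits is encoded in the nucleus, made in the cytosol and imported. Some of these proteins have bacterial homologues and others are found only in mitochondria. T cells that leave the resting state and begin to divide enlarge their mitochondria, and mitochondrial translation is needed for their proliferation. Names do not always give the subunit: Mrps30 and Mrps18a belong to the large subunit, and Mrps36 has since been assigned to the 2-oxoglutarate dehydrogenase complex. The 13 rows of genes encoded in mitochondrial DNA held 0 reads and could not be set beside the members.

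Library totals were 5620257 to 11070734 counts, of which the members took 0.190% to 0.383%. Values below are CPM, read counts scaled to a common library total with TMM factors. Several libraries stand apart from their labels or from their group. In CD8αβ IEL replicate 1, 71 genes were over 4-fold above every other library, against 0 to 11 genes in each of the others. Ppia and Rps6, which have many processed pseudogenes, were among them. Ppia was at 1774 CPM there and at 9.38 to 29.8 CPM elsewhere, and Rps6 at 1169 CPM against 10.8 to 26.0 CPM. Among the members, Mrpl23 was over 2-fold above all other libraries in it, and results for Mrpl23 and Mrps36, which both have named pseudogenes in GENCODE, are given with and without that library. How reads with several matches were counted is not given in the sources used here. Of the 6 libraries labelled CD8αα, 4 had 3245 to 4235 Xist reads and 0 to 4 reads of each of the Y-linked genes Ddx3y, Eif2s3y, Kdm5d and Uty (CD8αα from CD4 replicates 1 and 2, CD8αα from CD8αβ replicates 1 and 3), while the remaining 8 libraries of the series had 0 to 279 Xist reads and 99 to 1685 reads of each Y-linked gene. Most defining T cell markers were low in the libraries labelled CD8αα. Of 10 such markers, 9 were called lower and 1, Cd3g, higher in each CD8αα group than in its companion. Their median log2 fold change was -5.85 relative to CD4 IEL and -4.94 relative to CD8αβ IEL. The sum of all 10, Cd3g included, differed less. It was 1978 to 2456 CPM in CD8αα from CD4 against 3755 to 4190 CPM in CD4 IEL. For CD8αα from CD8αβ it was 3414 to 3886 CPM, against 3948 to 4544 CPM in CD8αβ IEL. Cd3e was at 8.71, 3.21 and 12.8 CPM in CD8αα from CD4 and 505, 528 and 639 CPM in CD4 IEL. It was at 22.2, 18.9 and 14.1 CPM in CD8αα from CD8αβ and 574, 403 and 503 CPM in CD8αβ IEL. The summed level of 11 NK and innate lymphoid markers was 3649 to 4398 CPM in CD8αα from CD4 against 1715 to 1875 CPM in CD4 IEL, and 4047 to 6564 CPM in CD8αα from CD8αβ against 1466 to 1672 CPM in CD8αβ IEL. Of these 11 markers, 4 were called higher and 4 lower in CD8αα from CD4, and 5 higher and 3 lower in CD8αα from CD8αβ. Markers of epithelium summed to 506 to 613 CPM in CD8αα from CD4, 115 to 223 CPM in CD4 IEL, 623 to 1005 CPM in CD8αα from CD8αβ and 311 to 759 CPM in CD8αβ IEL, and 6 of the 15 tested were called lower in CD4 IEL than in CD8αβ IEL. In CD8αα from CD4 relative to CD4 IEL 2 were called higher and 0 lower (median log2 fold change 1.04). In CD8αα from CD8αβ relative to CD8αβ IEL 4 were higher and 0 lower, with a median of -0.18. Epcam had the largest called change in both. It averaged 100 CPM in CD8αα from CD4, 4.90 CPM in CD4 IEL, 207 CPM in CD8αα from CD8αβ and 34.2 CPM in CD8αβ IEL. Markers of myeloid cells, 11 genes, summed to 1127 to 1335 CPM in CD8αα from CD4, 159 to 287 CPM in CD4 IEL, 634 to 820 CPM in CD8αα from CD8αβ and 402 to 757 CPM in CD8αβ IEL, with S100a8 and S100a9 at 0 in all libraries. Of the 8 tested, 2 were called higher and 0 lower in CD8αα from CD4 than in CD4 IEL (median log2 fold change -0.29). In CD8αα from CD8αβ relative to CD8αβ IEL, 2 were higher and 4 lower (-0.78). Itgax and Itgam held most of the sum in both CD8αα groups. They averaged 845 and 241 CPM in CD8αα from CD4 and 68.6 and 8.98 CPM in CD4 IEL. In CD8αα from CD8αβ they averaged 411 and 194 CPM, and in CD8αβ IEL 147 and 2.66 CPM. Markers of B cells summed to 45.3 to 55.2 CPM in CD8αα from CD4, 3.13 to 6.76 CPM in CD4 IEL, 67.3 to 75.04 CPM in CD8αα from CD8αβ and 10.46 to 20.7 CPM in CD8αβ IEL. Over all tested genes, 15% were called higher and 13.5% lower in CD8αα from CD4 than in CD4 IEL. In CD8αα from CD8αβ relative to CD8αβ IEL these shares were 16.1% and 15.1%, and 16% were called lower in CD4 IEL than in CD8αβ IEL. The part of these library and marker differences in the results below was not tested, and rose and fell follow the labels.

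Promoter windows of 300 bases, 250 before and 50 after the annotated start (RefSeq, GRCm38.p6), were at hand for 67 of the 76 members, 1 window per gene. They were searched on both strands for 4 motifs: a core of the NRF1 motif (GCGCANGCG, where N is any base), the ETS motif bound by GABPA (CCGGAAG), the YY1 motif (AANATGGCG) and the E-box that MYC can bind (CACGTG). NRF1, GABPA and YY1 are textbook activators of nuclear genes for mitochondria. The NRF1 letters were in 22.4% of the members' windows, against 13.8% of the windows of the 8676 other tested genes that have one. The GABPA letters were in 34.3% of members' windows against 18.7%, the YY1 letters in 14.9% against 5.37% and the E-box in 7.46% against 10.2%. Over all 27025 genes with a window, the shares were 6.47% for NRF1, 9.12% for GABPA, 2.51% for YY1 and 7.24% for the E-box. Thus 40 of the 67 members had at least 1 match to NRF1, GABPA or YY1. A match is only a run of letters, and no factor's binding was measured.

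The first 3 windows are those of the members with the largest called rise or fall in the comparisons of CD8αα cells with their companions, given as coordinates of GRCm38.p6 with capitals at motif matches. Mrpl34 (chr8:71464676-71464975, plus strand) has a GABPA match. Mrps5 (chr2:127587176-127587475, plus strand) and Mrpl23 (chr7:142532782-142533081, plus strand) have no match to any of the motifs.
Mrpl34: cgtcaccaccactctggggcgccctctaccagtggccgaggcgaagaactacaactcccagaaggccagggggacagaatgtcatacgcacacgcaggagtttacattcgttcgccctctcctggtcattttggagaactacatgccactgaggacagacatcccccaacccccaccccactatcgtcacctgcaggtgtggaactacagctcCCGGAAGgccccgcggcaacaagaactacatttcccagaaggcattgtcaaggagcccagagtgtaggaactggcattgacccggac
Mrps5: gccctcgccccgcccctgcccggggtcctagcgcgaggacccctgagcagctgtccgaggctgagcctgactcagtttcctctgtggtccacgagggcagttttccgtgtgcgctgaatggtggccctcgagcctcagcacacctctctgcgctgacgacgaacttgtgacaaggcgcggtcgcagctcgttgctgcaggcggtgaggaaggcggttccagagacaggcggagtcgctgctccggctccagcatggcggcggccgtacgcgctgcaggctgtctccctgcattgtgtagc
Mrpl23: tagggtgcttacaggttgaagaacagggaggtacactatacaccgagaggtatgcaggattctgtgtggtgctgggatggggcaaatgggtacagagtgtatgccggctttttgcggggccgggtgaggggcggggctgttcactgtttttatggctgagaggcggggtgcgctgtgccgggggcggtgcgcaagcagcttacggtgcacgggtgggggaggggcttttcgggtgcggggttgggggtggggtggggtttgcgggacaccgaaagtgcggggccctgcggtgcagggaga
A further set was chosen after the values were seen, to show members that fell together. Mrps16 (chr14:20393441-20393740, minus strand), lower in CD4 IEL and in CD8αα from CD8αβ, has 2 GABPA matches. Mrpl18 (chr17:12916042-12916341, minus strand), with a called difference between the CD8αα changes, has 1 GABPA match. Mrps11 (chr7:78782881-78783180, plus strand), whose first exon overlaps that of Mrpl46 on the other strand, has 1 YY1 match.
Mrps16: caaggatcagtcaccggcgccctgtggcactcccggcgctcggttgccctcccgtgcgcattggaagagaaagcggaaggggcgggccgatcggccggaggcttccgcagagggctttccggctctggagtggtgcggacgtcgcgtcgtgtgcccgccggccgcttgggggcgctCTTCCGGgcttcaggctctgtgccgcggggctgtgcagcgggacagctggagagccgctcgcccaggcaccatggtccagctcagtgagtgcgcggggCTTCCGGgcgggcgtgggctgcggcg
Mrpl18: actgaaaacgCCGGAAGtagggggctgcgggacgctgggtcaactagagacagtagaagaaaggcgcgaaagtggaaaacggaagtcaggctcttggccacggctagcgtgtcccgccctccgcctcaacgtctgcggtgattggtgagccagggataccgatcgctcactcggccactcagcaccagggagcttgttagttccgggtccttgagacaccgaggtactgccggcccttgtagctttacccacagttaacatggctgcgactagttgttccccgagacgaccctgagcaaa
Mrps11: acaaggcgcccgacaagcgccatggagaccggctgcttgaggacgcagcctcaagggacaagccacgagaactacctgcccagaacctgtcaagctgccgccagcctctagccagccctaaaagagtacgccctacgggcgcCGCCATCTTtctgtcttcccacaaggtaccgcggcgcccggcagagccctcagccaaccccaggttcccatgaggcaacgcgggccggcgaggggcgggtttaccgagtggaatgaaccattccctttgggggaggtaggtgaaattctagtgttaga
The shares are given also by the members' change between CD4 IEL and CD8αβ IEL, described below. An NRF1, GABPA or YY1 match was in 60.9% of the windows of 46 members called lower there and in 57.1% of the windows of 21 that were not called. By motif, the GABPA letters were in 39.1% of windows of called members against 23.8% of those not called, the NRF1 letters in 19.6% against 28.6% and the YY1 letters in 15.2% against 14.3%, and these differences were not tested.

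Many members share their start region with another gene. Of the 76, 32 (42.1%) had the start of another protein-coding gene on the opposite strand within 1000 bases, as annotated in GENCODE M21, against 16.7% of 10661 tested coding genes. One such pair joined 2 members, Mrpl46 and Mrps11. Others joined members to genes of mitochondrial function, such as Mrpl36 with Ndufs6 and Mrpl47 with Ndufb5, both encoding subunits of complex I, Mrps12 with the mitochondrial seryl-tRNA synthetase gene Sars2, and Mrpl43 with the mitochondrial helicase gene Twnk. Exons of 27 members overlapped a gene on the opposite strand and those of 7 a gene on the same strand. Whether counting used strand is not given in the sources used here, so reads of overlapping exons could not be assigned to 1 gene with certainty.

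The members' summed level was lowest in CD4 IEL and highest in CD8αβ IEL. All 76 together were at 2126, 2219 and 2542 CPM in CD8αα from CD4 and 1777, 1830.4 and 2078 CPM in CD4 IEL. They were at 2689, 3219 and 2977 CPM in CD8αα from CD8αβ and 3043, 3819 and 3190 CPM in CD8αβ IEL. The 2 groups from CD8αβ donor cells did not overlap the 2 groups from CD4 donor cells. CD8αβ IEL replicate 2 was the highest library, with the highest level of all 12 libraries for 44 members. The large subunit members summed to 1472 ± 136 CPM (SD, n = 3) in CD8αα from CD4 and 1199 ± 63.6 CPM in CD4 IEL. In CD8αα from CD8αβ they summed to 1910 ± 182 CPM (SD, n = 3) and in CD8αβ IEL to 2181 ± 284 CPM. The small subunit members summed to 824 ± 84.7 CPM in CD8αα from CD4 and 696 ± 98.7 CPM in CD4 IEL, and to 1051 ± 85.1 CPM in CD8αα from CD8αβ and 1170 ± 139 CPM in CD8αβ IEL (SD, n = 3 each). With genes split by name, so that Mrps30, Mrps18a and Mrps36 count as small subunit, the ratio of large to small subunit transcripts was 1.58 to 1.98 over the 12 libraries, and its ranges overlapped among all 4 groups. In bulk samples a lower share of cells that hold a transcript and less of it per cell cannot be told apart.

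**Figure D1:**
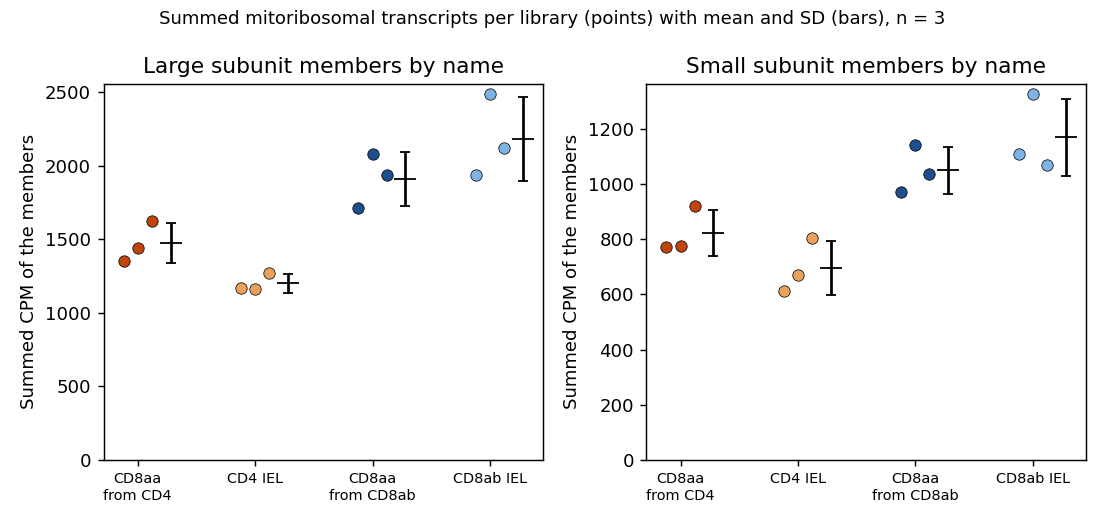
Summed CPM (y axis) of the 47 large subunit members (left) and the 29 small subunit members (right) in each library (points), with mean and SD of 3 libraries (bars), for the 4 groups on the x axis. Large subunit sums average 1472 in CD8αα from CD4, 1199 in CD4 IEL, 1910 in CD8αα from CD8αβ and 2181 in CD8αβ IEL.

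Most members shared this order. CD4 IEL had the lowest group mean for 61 of the 76 and CD8αβ IEL the highest for 52, and 41 members ran from CD4 IEL through CD8αα from CD4 and CD8αα from CD8αβ to CD8αβ IEL. Such orders were not counted over all tested genes, so these counts describe the members only. Across the 12 libraries, 43 members had a Pearson correlation over 0.8 with the mean of the other members, and the median was 0.85. The points share depth and scaling, so this describes likeness only. Mrpl51, a large subunit protein, was most like the rest at 0.98. Mrps5, Mrps25 and Mrpl9 were the 3 members with a negative correlation, at -0.54, -0.31 and -0.11. Within groups the median coefficient of variation of a member was 16.2% in CD8αα from CD4, 16.1% in CD4 IEL, 15.9% in CD8αα from CD8αβ and 18.8% in CD8αβ IEL.

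**Figure D2:**
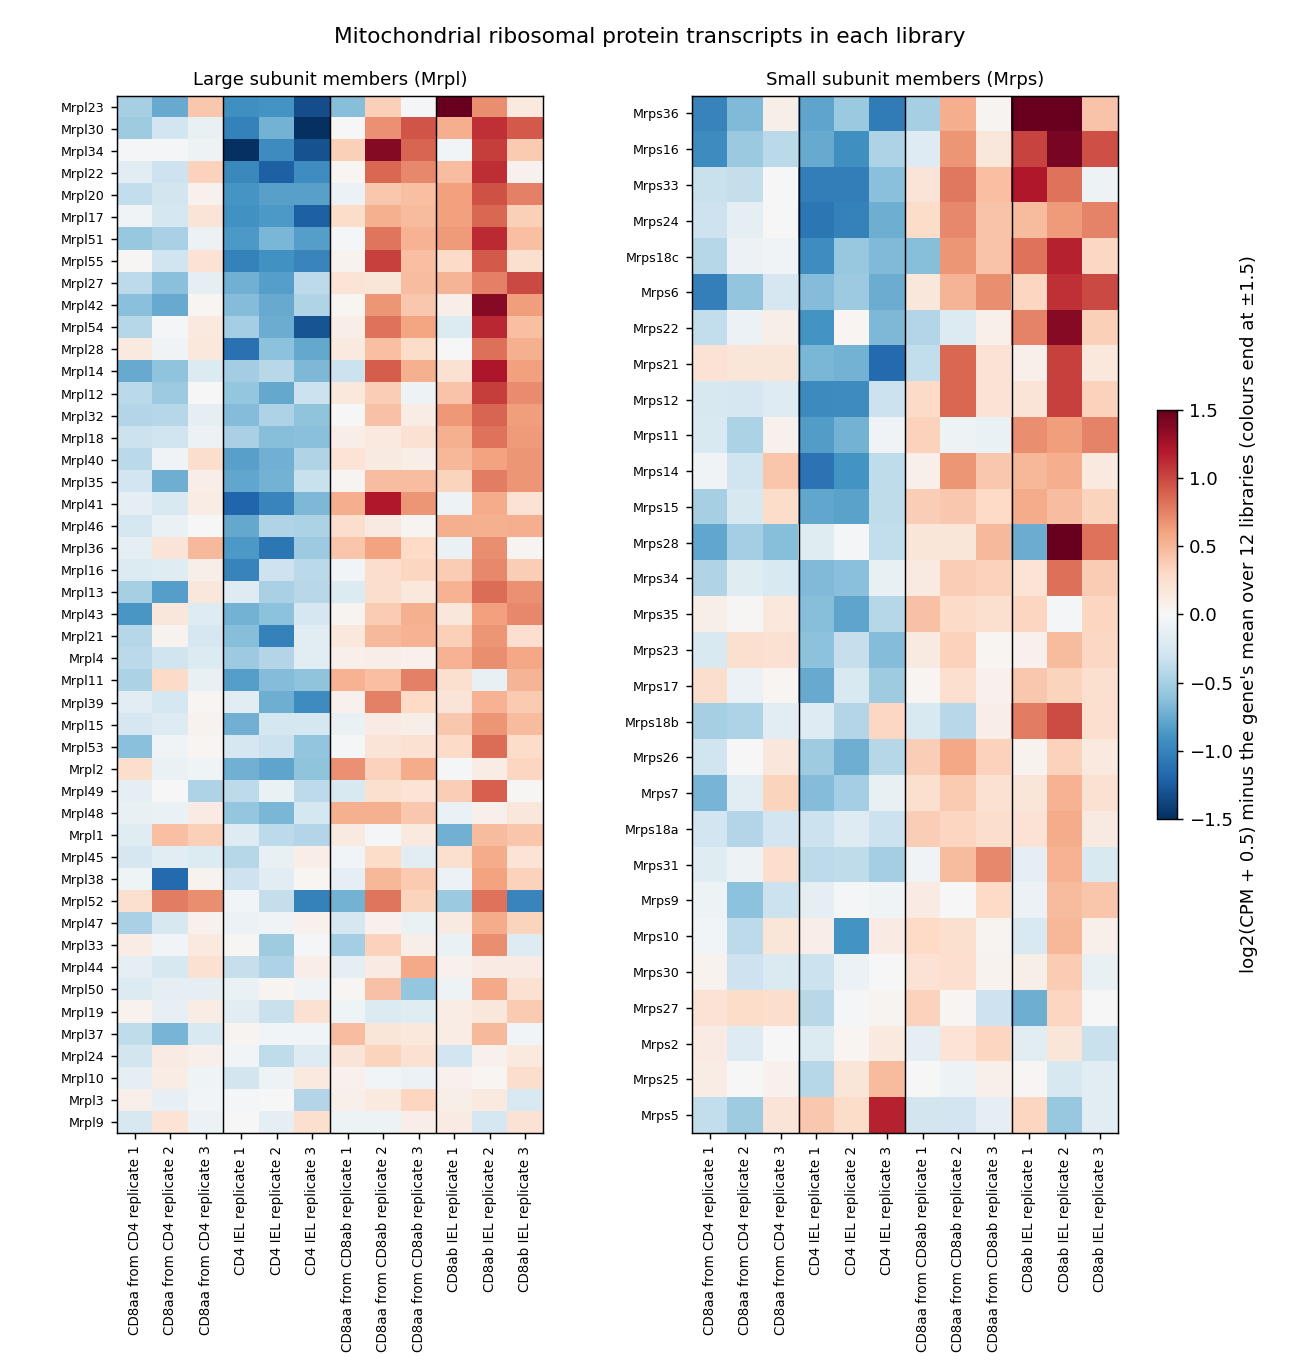
Each row is a member and each column a library, coloured by log2(CPM + 0.5) minus the gene's mean over the 12 libraries; large subunit genes are on the left and small subunit genes on the right, each ordered by the change between CD4 IEL and CD8αβ IEL. CD4 IEL columns are the lowest group for 61 of 76 members, and Mrps5 at the bottom right runs the other way.

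Per length of transcript, levels of members differed widely. Mrpl4, whose bacterial homologue lines the exit tunnel of the ribosome, was highest at 140.2 CPM per kb of median transcript length over all libraries. Mrpl1 was lowest at 4.65 CPM per kb. Mrpl4 was at 82.5, 89.5 and 95.3 CPM in CD8αα from CD4, 75.0, 80.9 and 97.9 CPM in CD4 IEL, 116, 118 and 115 CPM in CD8αα from CD8αβ and 158, 178 and 165 CPM in CD8αβ IEL. Its CD8αβ IEL libraries were above all 9 others.

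The largest median change was between the companion populations, CD4 IEL and CD8αβ IEL. Of the 76 members, 52 were lower in CD4 IEL and 0 higher, against 16% of all 12622 tested genes called lower and 12.9% called higher (edgeR's quasi-likelihood test, Benjamini-Hochberg adjusted p under 0.05). The members' median log2 fold change was -1.004, against 0.01 over all genes. In 55 members all 3 CD4 IEL libraries were below all 3 CD8αβ IEL libraries, against 21.5% of all genes. Both subunits took part: 33 of 47 large subunit members (median log2 fold change -1.05) and 19 of 29 small subunit members (-0.84) fell. By class, 22 of 30 large subunit proteins with a bacterial homologue and 12 of 19 without one fell, as did 11 of 16 and 6 of 10 in the small subunit. Leaving out each library in turn gave 46 to 54 called members, and 44 were called in each of these 12 fits.

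Mrpl30, a large subunit protein, was at 19.6, 24.4 and 13.5 CPM in CD4 IEL and 58.9, 86.003 and 76.6 CPM in CD8αβ IEL. It fell by 1.94 on the log2 scale (SE 0.27, adjusted p = 0.000278, edgeR), and no CD4 IEL library reached the lowest CD8αβ IEL library. Mrpl34, one of the smallest large subunit proteins, was at 3.93, 6.66 and 5.09 CPM in CD4 IEL and 12.9, 27.9 and 17.6 CPM in CD8αβ IEL, a log2 fold change of -1.90 (SE 0.35, adjusted p = 0.00164, edgeR). Mrps16, a small subunit protein whose mutation in humans impairs mitochondrial translation, was at 17.3, 15.4 and 21.4 CPM in CD4 IEL and 60.4, 80.3 and 58.6 CPM in CD8αβ IEL. Its log2 fold change was -1.88 (SE 0.25, adjusted p = 0.000211, edgeR), with the groups far apart. Mrpl22, Mrps33 and Mrpl20 followed with log2 fold changes of -1.71, -1.68 and -1.65.

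The 2 members with the largest fitted falls were highest in the library that stands apart, and without it Mrpl23 lost its call and Mrps36 kept it. Mrpl23 was at 0.763, 0.783 and 0.449 CPM in CD4 IEL and 25.8, 3.38 and 2.14 CPM in CD8αβ IEL. Of its 330 reads in all libraries, 186 were in CD8αβ IEL replicate 1 and 16 in CD4 IEL together. Its log2 fold change was -3.93 (SE 0.93, adjusted p = 0.00749, edgeR), and without that replicate it was -2.02 (adjusted p = 0.0797, edgeR) and no longer called. Mrps36 was at 4.03, 4.83 and 3.29 CPM in CD4 IEL and 28.7, 22.4 and 10.04 CPM in CD8αβ IEL. It fell by 2.33 on the log2 scale (adjusted p = 0.00261, edgeR), and by 2.00 without that replicate (adjusted p = 0.00884, edgeR). Without that replicate all called members but Mrpl23 kept their call, 51 with Mrps36 included.

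By position in the ribosome, the stalk that recruits translation factors was lower in CD4 IEL in part. Mrpl12, the stalk protein itself, had a log2 fold change of -1.31 (SE 0.22) and Mrpl11, at its base, of -0.97 (SE 0.28), both called. Mrpl10, which anchors the stalk, was not: it was at 62.4, 71.3 and 83.1 CPM in CD4 IEL and 79.0, 76.7 and 90.4 CPM in CD8αβ IEL (log2 fold change -0.18, SE 0.15, adjusted p = 0.368, edgeR). Mrps12, at the decoding centre, fell by 1.31 and Mrps7, of the small subunit head, by 0.73, as did Mrps22, a mitochondria-specific small subunit protein, by 1.38. Mrpl45, at the tunnel exit, had -0.48 (adjusted p = 0.0725, edgeR) and missed the threshold. Only 3 members had a fold change above 0, namely Mrps5 (0.77), Mrps25 (0.25) and Mrps2 (0.08), and none of these was called.

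**Figure D3:**
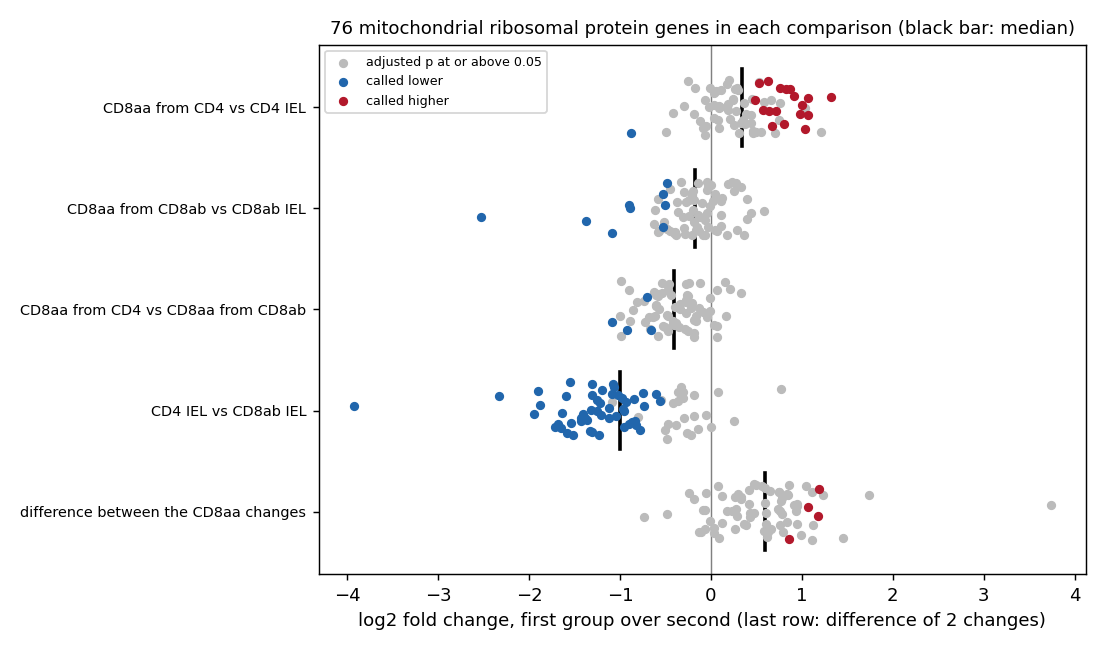
Log2 fold change (x axis) of each of the 76 members (points) in the 5 comparisons, with the median as a black bar, blue for called lower, red for called higher and grey for neither at an adjusted p of 0.05. In CD4 IEL over CD8αβ IEL 52 members are blue around a median of -1.004, and in CD8αα from CD4 over CD4 IEL 18 are red around a median of 0.34.

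Length of the transcript moved with this comparison. Across the 11715 tested genes with an annotated length, CD4 IEL were lower for short transcripts: the median log2 fold change was -0.52 for the 1358 genes whose coding transcripts have a median length under 800 nt in GENCODE M21 and 0.44 for the 1914 genes of 4000 nt and over. Members are short, with a median of 1038 nt against 2118 nt for all tested genes. Within each length range the members lay below the genes of the same length. Under 800 nt their median was -1.40 and 22 of 25 were called lower, against 36.4% of genes. From 800 to 1199 nt it was -1.07 with 16 of 18, and from 1200 to 1999 nt -0.48 with 7 of 17, against 35.7% and 19.5% of genes. From 2000 to 3999 nt it was -0.50 with 6 of 13 called, against 0.15 and 8.05% for genes. With each library's trend with length and GC content removed, an alternative added after seeing the data, 42 members were called lower and 0 higher, with a median of -0.71.

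**Figure D4:**
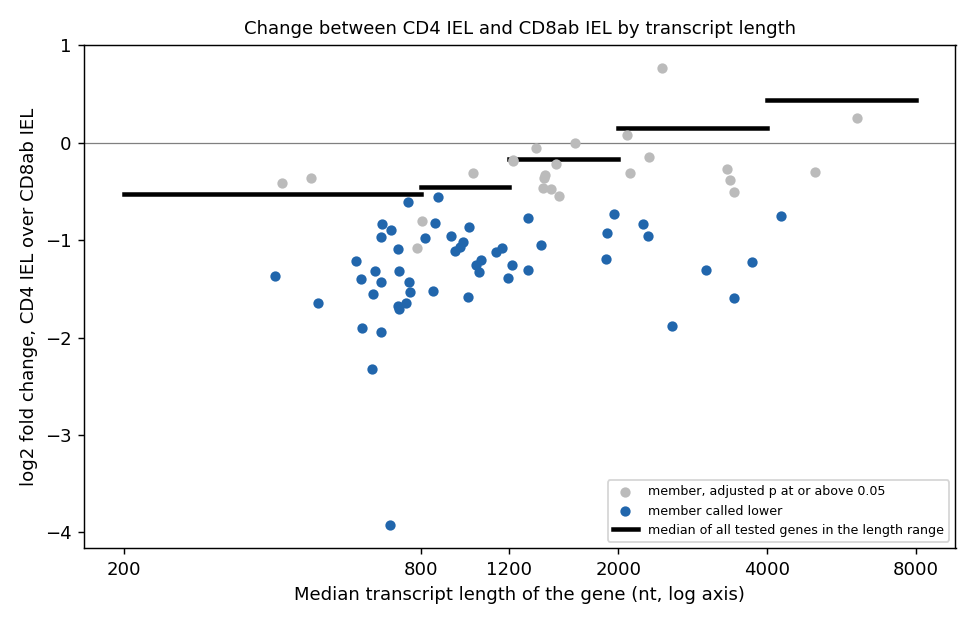
Log2 fold change of CD4 IEL over CD8αβ IEL (y axis) against median transcript length in nt (x axis, log scale) for the 76 members (points, blue where called lower), with the median of all tested genes in 5 length ranges as black bars. Most points lie below the bars, which run from -0.52 under 800 nt to 0.44 at 4000 nt and over.

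In the progeny of CD4 T cells, the members were mostly higher in CD8αα from CD4 than in CD4 IEL. Of the 76, 18 rose and 1 fell, against 15% of tested genes called higher and 13.5% called lower. The share called higher was 11 of 47 for the large subunit and 7 of 29 for the small, and the median log2 fold change of the 76 was 0.34, against 0.02 over all genes. In 35 members all 3 CD8αα libraries were above all 3 CD4 IEL libraries, against 24.3% of genes. The share with an unadjusted p under 0.05 (edgeR), either way, was 35.5% of members and 38.9% of tested genes. Among members by length, the median was 0.67 under 800 nt, where that of all genes was 0.26, and 0.11 from 2000 to 3999 nt.

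Mrpl34 had the largest rise. It was at 13.1, 13.2 and 12.6 CPM in CD8αα from CD4 and 3.93, 6.66 and 5.09 CPM in CD4 IEL, a 2.49-fold difference (log2 fold change 1.32, SE 0.35, adjusted p = 0.0121, edgeR). Mrps21, a small subunit protein, was at 20.3, 19.8 and 19.8 CPM in CD8αα from CD4 and 10.6, 10.4 and 7.49 CPM in CD4 IEL (log2 fold change 1.07, adjusted p = 0.0306, edgeR). In both genes the 3 CD8αα libraries lay close together and above all CD4 IEL libraries. Mrpl22, whose bacterial homologue reaches into the exit tunnel, was at 14.2, 12.7 and 20.3 CPM in CD8αα from CD4 and 7.85, 6.52 and 8.09 CPM in CD4 IEL. It rose by 1.07 on the log2 scale (adjusted p = 0.0249, edgeR). Mrpl36, another small protein of the large subunit, was at 36.0, 45.3 and 55.4 CPM in CD8αα from CD4 and 21.5, 18.4 and 27.0 CPM in CD4 IEL, a log2 fold change of 1.03 (SE 0.24, adjusted p = 0.00531, edgeR). Mrpl55, Mrpl17, Mrpl28 and Mrpl41 rose by 0.997, 0.97, 0.92 and 0.87.

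The 1 member that fell was Mrps5, a small subunit protein near the entry of the messenger RNA in the bacterial ribosome. It was at 28.5, 25.4 and 42.4 CPM in CD8αα from CD4 and 49.3, 44.9 and 83.3 CPM in CD4 IEL, a log2 fold change of -0.88 (SE 0.28, adjusted p = 0.032, edgeR). CD4 IEL replicate 3 was the highest and the lowest CD4 IEL library was just above the highest CD8αα library. The stalk, decoding and other proteins named above by position, and Mrps36, all missed the threshold: Mrpl12 had 0.25 (SE 0.22), Mrpl10 0.04 (SE 0.15), Mrpl11 0.66 (SE 0.28), Mrps12 0.49 (SE 0.27), Mrps7 0.30 (SE 0.24), Mrps22 0.36 (SE 0.33), Mrpl45 -0.08 (SE 0.19) and Mrps36 0.36 (SE 0.46). The count depended on few libraries. Without CD8αα from CD4 replicate 3 or without CD4 IEL replicate 1, 7 members rose and 1 fell, and without CD4 IEL replicate 2, 10 and 1. Mrpl17, Mrpl2, Mrpl28, Mrpl36, Mrps24 and Mrps35 were called without any 1 of the 12 libraries. With only the CD8αα libraries that hold Y-linked transcripts, which leaves 1 per group, assumed to vary like the other groups, 4 members rose (Mrps14, Mrpl17, Mrpl36 and Mrpl40) and 0 fell, with a median of 0.54.

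**Figure D5:**
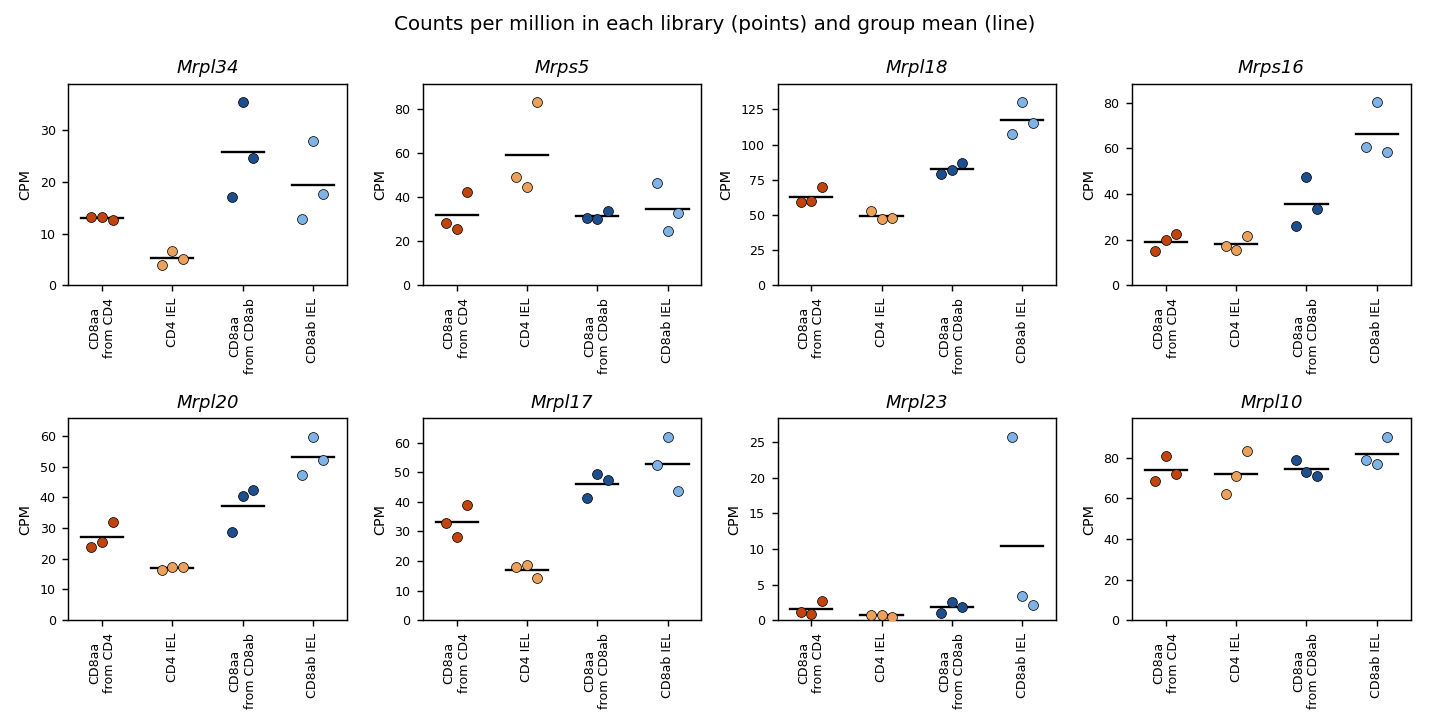
CPM (y axis) in each library (points) with the group mean (line) for 8 members in the 4 groups (x axis). Mrpl34 is lowest in CD4 IEL at 3.93 to 6.66 CPM, Mrps5 is highest in CD4 IEL, Mrpl23 is at 25.8 CPM in CD8αβ IEL replicate 1 alone, and Mrpl10 differs little among the groups.

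In the progeny of CD8αβ T cells, the members that passed the test were all lower in CD8αα cells. Of the 76, 9 fell in CD8αα from CD8αβ relative to CD8αβ IEL and 0 rose, against 15.1% of tested genes called lower and 16.1% called higher, so the share of members called was below that of all genes. With length and GC trends removed, 10 were called lower and 2 higher, Mrpl41 (0.67, adjusted p = 0.0224, edgeR) and Mrpl48 (0.53, adjusted p = 0.022, edgeR). The median log2 fold change was -0.18, and in 18 members all 3 CD8αα libraries were below all 3 CD8αβ IEL libraries, against 20.5% of genes. The share with an unadjusted p under 0.05 (edgeR), either way, was 26.3% of members and 40.2% of tested genes.

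Mrps22 was at 10.1, 12.01 and 14.7 CPM in CD8αα from CD8αβ and 23.6, 36.5 and 17.9 CPM in CD8αβ IEL. It fell by 1.09 on the log2 scale (SE 0.32, adjusted p = 0.0205, edgeR). Mrps16 was at 26.0, 47.3 and 33.6 CPM in CD8αα from CD8αβ and 60.4, 80.3 and 58.6 CPM in CD8αβ IEL (log2 fold change -0.90, SE 0.24, adjusted p = 0.011, edgeR). The groups did not overlap in either gene. Mrps18b, of the small subunit, fell by 0.89, and the large subunit genes Mrpl32, Mrpl4, Mrpl18 and Mrpl15 fell by 0.53, 0.52, 0.51 and 0.48. Mrpl32 is processed in mitochondria by the protease that Afg3l2 encodes a subunit of. The largest fitted falls were again those of Mrpl23 and Mrps36, at -2.52 (adjusted p = 0.0366) and -1.38 (adjusted p = 0.0282, edgeR). Mrpl23 was at 1.03, 2.55 and 1.84 CPM in CD8αα from CD8αβ and 25.8, 3.38 and 2.14 CPM in CD8αβ IEL, so that only replicate 1 lay far above. Mrps36 was at 5.05, 10.9 and 7.58 CPM in CD8αα from CD8αβ and 28.7, 22.4 and 10.04 CPM in CD8αβ IEL. Without CD8αβ IEL replicate 1 they had -0.61 and -1.05 and neither was called, nor were Mrpl15 and Mrps18b, and 7 members were called in all. Of the remaining named members, Mrpl12 had -0.59 (SE 0.21, adjusted p = 0.0504, edgeR), Mrpl10 -0.14 (SE 0.15), Mrpl11 0.36 (SE 0.27), Mrpl45 -0.31 (SE 0.19), Mrps12 -0.09 (SE 0.26) and Mrps7 -0.03 (SE 0.23).

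The count was sensitive to libraries here as well. It was 2 without CD8αα from CD8αβ replicate 1, and without CD8αβ IEL replicate 2 1 member rose and 4 fell. Mrpl18 and Mrpl4 were called without any 1 library. With only the CD8αα libraries that hold Y-linked transcripts, 0 members were called (median -0.05).

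The changes of CD8αα cells in the 2 progenies share no library. No member was called in both. Of the 76 members, 45 (59.2%) had a fold change above 0 in CD4 progeny and below 0 in CD8αβ progeny, a combination held by 15.6% of tested genes. That share is not matched for length, and short genes in general leaned the same way. Under 800 nt the median of all genes was 0.26 in CD4 progeny and -0.11 in CD8αβ progeny, and that of members 0.67 and -0.19. At 4000 nt and over, all genes had -0.15 and 0.04. The 18 members called higher in CD4 progeny had log2 fold changes of -0.51 to 0.58 in CD8αβ progeny, of which 10 were negative. The 9 called lower in CD8αβ progeny had -0.30 to 1.21 in CD4 progeny, of which 1 was negative. The difference between the 2 changes was tested directly. It was above 0 and called for 4 members and below 0 for 0, against 1.2% and 1.35% of tested genes, with a median of 0.60 over the members.

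These 4 encode large subunit proteins, Mrpl20, Mrpl17 and Mrpl18 with bacterial homologues and Mrpl40 without one. Mrpl20 was at 23.7, 25.3 and 32.0 CPM in CD8αα from CD4 and 16.4, 17.2 and 17.2 CPM in CD4 IEL, whereas it was at 28.8, 40.6 and 42.3 CPM in CD8αα from CD8αβ and 47.4, 59.8 and 52.2 CPM in CD8αβ IEL. The difference between the changes was 1.19 on the log2 scale (SE 0.28, adjusted p = 0.0405, edgeR), and neither pair of groups overlapped. Mrpl17 was at 32.8, 28.2 and 38.9 CPM in CD8αα from CD4 and 17.9, 18.5 and 14.2 CPM in CD4 IEL, and at 41.2, 49.5 and 47.3 CPM in CD8αα from CD8αβ and 52.4, 62.0 and 43.8 CPM in CD8αβ IEL (difference 1.17, adjusted p = 0.0398, edgeR). In CD8αβ progeny its libraries overlapped.

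Mrpl40 was at 35.5, 45.6 and 56.8 CPM in CD8αα from CD4 and 26.7, 28.4 and 34.3 CPM in CD4 IEL, and at 54.3, 51.8 and 50.6 CPM in CD8αα from CD8αβ and 66.8, 71.8 and 74.8 CPM in CD8αβ IEL (difference 1.07, adjusted p = 0.0408, edgeR). Mrpl18 was at 58.9, 60.2 and 69.6 CPM in CD8αα from CD4 and 52.6, 47.4 and 47.9 CPM in CD4 IEL, and at 79.1, 82.2 and 87.1 CPM in CD8αα from CD8αβ and 108, 130.3 and 115 CPM in CD8αβ IEL (difference 0.86, SE 0.19, adjusted p = 0.0328, edgeR). The calls lay near the threshold: 0 members were called with length and GC trends removed, with only the CD8αα libraries that hold Y-linked transcripts, or without CD8αα from CD4 replicate 2 or 3, CD4 IEL replicate 2, CD8αβ IEL replicate 2 or any 1 CD8αα from CD8αβ library. An unadjusted p under 0.05 (edgeR) was found for 30 members (39.5%), against 18.2% of tested genes. Mrps36 and Mrpl23 had larger fitted differences, 1.74 and 3.74, that missed the threshold. Without CD8αβ IEL replicate 1 these were 1.41 and 1.83 and missed it too. The named members Mrps22 (1.45), Mrpl12 (0.84), Mrps12 (0.58), Mrps7 (0.33), Mrpl11 (0.30), Mrpl45 (0.23) and Mrpl10 (0.18) missed it too.

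Between the CD8αα populations, few members passed the test, and those that did were lower in CD8αα from CD4. A fold change below 0 was found in 68 of 76 members, with a median of -0.41, while 4 were called lower and 0 higher, against 2.46% and 1.87% of tested genes. In 31 members all 3 CD8αα from CD4 libraries were below all 3 CD8αα from CD8αβ libraries, against 16.7% of genes. Length of the transcript moved with this comparison too. Under 800 nt all genes had a median of -0.21 with 5.01% called lower, and members -0.61 with 2 of 25. From 800 to 1199 nt genes had -0.19 with 4.57%, and members -0.33 with 1 of 18. Genes of 4000 nt and over had a median of 0.20. Among genes of like length, the share of members called was thus near that of all genes. Mrps6, of the small subunit, was at 9.39, 12.8 and 16.4 CPM in CD8αα from CD4 and 22.1, 28.2 and 32.2 CPM in CD8αα from CD8αβ (a log2 fold change of -1.09, SE 0.27, adjusted p = 0.0367, edgeR). Mrpl41, a mitochondria-specific protein, was at 25.6, 24.1 and 30.7 CPM in CD8αα from CD4 and 41.8, 66.0 and 45.0 CPM in CD8αα from CD8αβ (-0.93, adjusted p = 0.0427, edgeR). The groups were apart in both.

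Mrpl37, also mitochondria-specific, was at 40.5, 32.2 and 44.8 CPM in CD8αα from CD4 and 73.0, 59.6 and 58.7 CPM in CD8αα from CD8αβ (-0.71, adjusted p = 0.0438, edgeR). Mrps18a was at 25.4, 22.8 and 25.4 CPM in CD8αα from CD4 and 40.1, 39.0 and 37.2 CPM in CD8αα from CD8αβ (-0.66, adjusted p = 0.044, edgeR). These calls too lay close to the threshold: 0 members were called with library totals alone, with length and GC trends removed, or without CD8αα from CD4 replicate 1 or 2, CD4 IEL replicate 1 or 2, CD8αα from CD8αβ replicate 2 or 3, or CD8αβ IEL replicate 3. An unadjusted p under 0.05 (edgeR) was found for 31 members (40.8%), against 18.8% of tested genes. Of the named members, Mrps12 had -0.73 (SE 0.27), Mrpl11 -0.67 (SE 0.27), Mrps36 -0.59 (SE 0.45), Mrpl12 -0.47 (SE 0.22), Mrps7 -0.40 (SE 0.23), Mrpl45 -0.25 (SE 0.19), Mrpl10 -0.01 (SE 0.15) and Mrps22 0.07 (SE 0.33), and none was called.

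The 7 mitoribosomal proteins whose genes carry other names gave a like picture between the companions. In CD4 IEL 5 of the 7 were lower than in CD8αβ IEL (median -0.79), the largest fall being that of Chchd1, a small subunit protein, at -1.86 (SE 0.42, adjusted p = 0.00585, edgeR). Ict1, which encodes a large subunit protein able to release stalled peptides and is now called Mrpl58, was at 27.8, 31.6 and 34.1 CPM in CD4 IEL and 76.2, 74.5 and 67.8 CPM in CD8αβ IEL (log2 fold change -1.23). It missed the threshold in the other comparisons. Dap3, a GTP-binding protein of the small subunit, was called lower in both CD8αα groups than in their companions. It was at 19.8, 25.0 and 19.7 CPM in CD8αα from CD4 and 34.3, 30.4 and 39.5 CPM in CD4 IEL (-0.69, adjusted p = 0.0248, edgeR). In CD8αα from CD8αβ it was at 26.0, 29.2 and 20.5 CPM, against 53.1, 40.9 and 36.7 CPM in CD8αβ IEL (-0.79, adjusted p = 0.0105, edgeR).

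Other lists of mitochondrial gene expression held 0 to 3 genes called lower in CD4 IEL, where 16% of all tested genes were called lower and 12.9% higher. Of 25 mitoribosome assembly genes 0 were lower and 2 higher in CD4 IEL than in CD8αβ IEL (median 0.21), of 20 mitochondrial tRNA synthetase genes 0 and 2 (0.07), of 14 translation factor genes 3 and 1 (-0.23), and of 8 genes of mitochondrial DNA transcription and replication 2 and 0 (0.12). The share called lower was thus below that of all genes in the first 2 of these lists and above it in the last 2, which are small. Most subunits of oxidative phosphorylation and cytosolic ribosomal proteins were lower: 64 of 79 and 76 of 84 were called lower in CD4 IEL, with medians of -1.42 and -1.60. Many cytosolic ribosomal protein genes have near-identical copies, so their counts are uncertain. In CD8αα from CD4 relative to CD4 IEL, 18 of 79 oxidative phosphorylation genes rose and 0 fell, while 1 of 84 cytosolic ribosomal genes rose and 2 fell. Of all tested genes, 15% rose and 13.5% fell there. In CD8αα from CD8αβ relative to CD8αβ IEL, 59 of 84 cytosolic ribosomal genes fell and 10 of 79 oxidative phosphorylation genes fell, with 1 rise in each list. Of all tested genes, 15.1% fell and 16.1% rose there, so the share of oxidative phosphorylation genes that fell was below that of all genes.

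Single genes of these lists moved strongly with the CD8αα label. Afg3l2, which encodes a subunit of the protease that processes Mrpl32, was at 269, 296 and 245 CPM in CD8αα from CD4 and 118, 87.0 and 98.2 CPM in CD4 IEL (log2 fold change 1.42, SE 0.14, adjusted p = 4.2e-06, edgeR). Mrm1, which encodes a methyltransferase of mitochondrial large ribosomal RNA, was at 78.1, 67.3 and 64.1 CPM in CD8αα from CD8αβ and 19.1, 21.6 and 20.7 CPM in CD8αβ IEL (1.77, adjusted p = 6.32e-06, edgeR). Their groups lay far apart. The elongation factor genes went opposite ways. Tufm was at 24.2, 31.6 and 25.9 CPM in CD8αα from CD8αβ and 76.9, 50.3 and 37.9 CPM in CD8αβ IEL, a log2 fold change of -1.02 (SE 0.27, adjusted p = 0.0118, edgeR), whereas Tsfm rose in CD8αα from CD8αβ by 0.78 and in CD8αα from CD4 by 0.95. Polg, the polymerase of mitochondrial DNA, was at 19.8, 25.6 and 18.6 CPM in CD8αα from CD4 and 109, 81.4 and 91.1 CPM in CD4 IEL, a log2 fold change of -2.13. Among the tRNA synthetase genes the largest called changes were -1.29 for Aars2 in CD8αα from CD4 relative to CD4 IEL, 1.08 for Pet112l in CD8αα from CD8αβ relative to CD8αβ IEL and 1.48 for Pars2 in CD4 IEL relative to CD8αβ IEL. In the last comparison the largest were 1.19 for Wbscr16 among the assembly genes and -0.90 for Ssbp1, the single-stranded DNA binding protein, among the mitochondrial DNA genes.

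Cell cycle genes were lower in CD8αα cells of both progenies. Of 20 fixed cell cycle genes, 19 fell in CD8αα from CD4 relative to CD4 IEL (median -1.55), and 20 fell in CD8αα from CD8αβ relative to CD8αβ IEL (-2.39). Between the companions 17 of 20 were lower in CD4 IEL (-1.20), as were 52 of the 76 members. Myc, which promotes growth and ribosome production, averaged 51.4 CPM in CD8αα from CD4 and 101 CPM in CD4 IEL, and 103 CPM in CD8αα from CD8αβ and 166 CPM in CD8αβ IEL. It was called lower in CD8αα from CD4 relative to CD4 IEL (-0.98), in CD8αα from CD8αβ relative to CD8αβ IEL (-0.70), in CD8αα from CD4 relative to CD8αα from CD8αβ (-1.0005) and in CD4 IEL relative to CD8αβ IEL (-0.72). Among 13 nuclear regulators of mitochondrial genes, 4 fell and 0 rose in CD8αα from CD4 relative to CD4 IEL, against 13.5% and 15% of tested genes. The largest fall there was in Pprc1, a coactivator of such genes, at -1.82 (SE 0.32, adjusted p = 0.000836, edgeR). In CD8αα from CD8αβ relative to CD8αβ IEL, 3 of the 13 fell and 0 rose (median -0.41), against 15.1% and 16.1% of tested genes. Between the companions 1 was lower and 1 higher in CD4 IEL (median 0.40), against 16% and 12.9% of tested genes.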

How the data were processed

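Raw read counts per gene for 12 libraries were used as deposited by the authors. Alignment to mm10 with HISAT2 2.1.0 is recorded per the submitters' processing notes. Of the counting step, the tool, the strand setting and the handling of multiply aligned reads are not stated. Rows that share a symbol with another row (66 rows, 0.0202% of reads) were left out.

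Genes passing filterByExpr (minimum count 10, minimum total 15) numbered 12622. All 12 libraries entered 1 model (edgeR 4.0.16, R 4.3.3, TMM scaling, quasi-likelihood test), with p-values adjusted by the Benjamini-Hochberg method over all tested genes and called under 0.05. The SE is the log2 fold change divided by the root of the F statistic. CPM uses the TMM-scaled total of tested genes. A total of 3 counts, the floor of detection, was 0.271 to 0.534 CPM and covers counting error only. The test was tried on simulated counts.

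Alternatives were library totals, DESeq2 1.42.0 (size factors or Wald test), no filter, the 2 groups alone, a replicate block, each library left out, Y-linked CD8αα libraries only and, added after seeing the data, length and GC trends removed (loess). Members and lists were chosen with earlier results of these data known. Named members were the 8 largest called changes each way per comparison (the first 4 with library values), 9 members fixed by ribosomal position, the highest and lowest per length, and the largest called change of each other list.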

Additional observations from a re-analysis of the deposited data

Results flagged for a closer look

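The change of CD8αα cells relative to their companions differed between CD4 and CD8αβ progeny for 4 members, by the test of that difference in edgeR over all 12 libraries. The difference on the log2 scale was 1.19 for Mrpl20, 1.17 for Mrpl17, 1.07 for Mrpl40 and 0.86 for Mrpl18. Each of the 4 lost its call when some single libraries were left out. Groups of 3 libraries are too small to test for a sample that stands apart from its group.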

How the results depend on the processing

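The members' median log2 fold change kept its sign in every comparison under all alternatives run: it was 0.24 to 0.54 for CD8αα from CD4 over CD4 IEL, -0.31 to -0.03 for CD8αα from CD8αβ over CD8αβ IEL, -0.53 to -0.30 between the CD8αα groups, -1.07 to -0.71 between the companions and 0.42 to 0.68 for the difference between the CD8αα changes. The numbers of called members moved more, and the causes were not tested. Leaving out 1 library in turn gave 8 to 20, 2 to 12, 0 to 6, 46 to 54 and 0 to 4 called members in that order of comparisons. With only the CD8αα libraries that hold Y-linked transcripts, which leaves fewer samples, 4 were called in the first, 0 in the second, 0 in the CD8αα comparison and 0 for the difference. The DESeq2 Wald test called 15 in the second, 8 between the CD8αα groups and 10 for the difference. Between the CD8αα groups, library totals alone gave 0, DESeq2 size factors 2, no filter 2 and removed length and GC trends 0, and removing those trends also gave 0 for the difference. Between the companions, library totals alone moved the median of all genes to 0.13, against 0.01 with TMM.

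Uncalled members near 0 changed sign. Mrpl10 in CD8αα from CD4 over CD4 IEL had -0.047 with library totals, -0.0013 with the Y-linked libraries and -0.093 with length and GC trends removed, and -0.0752 to 0.15 with single libraries left out. Leaving out single libraries gave -0.23 to 0.045 for Mrpl45 and -0.034 to 0.56 for Mrps36 in that comparison. In CD8αα from CD8αβ over CD8αβ IEL, Mrps12 had 0.29 and Mrps7 0.080 with the Y-linked libraries, and -0.32 to 0.21 and -0.13 to 0.081 with single libraries left out. Between the CD8αα groups, Mrps22 had -0.058 to 0.22 and Mrpl10 -0.081 to 0.068 with single libraries left out. Mrpl10 there had 0.078 with library totals, 0.013 with DESeq2 size factors, 0.014 with the Wald test, 0.022 with no filter, 0.013 with the 2 groups alone and 0.15 with length and GC trends removed. With those trends removed it had 0.10 between the companions. Mrpl45 had a difference of -0.018 with the Y-linked libraries.

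With the replicate number as a block, 20, 10, 4, 53 and 6 members were called. Same-numbered libraries had correlated deviations of -0.069 to 0.326, over 0.1 in 2 of 18 pairs, so a pairing by number was not established. Between CD8αα from CD8αβ and CD8αβ IEL, each library correlated best with its own number, at 0.205, 0.326 and 0.098, against -0.257 to 0.058 for other numbers, a hint from the data and not from the design. Depth limits Mrpl23 most, at 330 reads in all.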
